A study of Rattus norvegicus with 108 samples.

Results

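Granule cells of the dorsal dentate gyrus (dorDG) were examined here as the cells to which the deposited annotation gives the name Granule: 119 of the 1289 annotated dorDG cells, or 9.23%. The data are single-cell RNA-seq counts of unique molecular identifiers (UMIs, 1 per captured RNA molecule) for 19127 genes, and the annotation sorts the cells into 12 types. The study asked how chronic fluoxetine, a selective serotonin reuptake inhibitor (SSRI) prescribed for depression, alters gene expression in the rat brain. All animals were naive male Long-Evans rats from Charles River, aged 2 months at the start, that drank either fluoxetine at 18 mg/kg body weight (FT) or plain water (Sham) for 6 weeks. The FT group comprised replicates 1, 2, 4 and 5 and the Sham group replicates 1 to 5; each replicate was 1 pool of tissue punches from several animals, so the spread between replicates is a spread between pools. FT replicates 1 and 2 and Sham replicates 1 and 2 were each run in 2 droplet reactions, called here the first and the second, and the other replicates in 1.

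The granule cell is the principal excitatory neuron of the dentate gyrus. Its soma lies in the granule cell layer, it receives its main input from the entorhinal cortex, and its mossy fibre axon releases glutamate onto mossy cells and CA3 pyramidal cells. New granule cells are made throughout adult life from progenitors of the subgranular zone, and this neurogenesis is known to respond to SSRIs. Prox1, a homeobox transcription factor, specifies and maintains granule cell identity; Calb1 encodes the calcium buffer calbindin of mature granule cells; C1ql2 encodes a secreted organiser of mossy fibre synapses; and Dsp encodes the junction protein desmoplakin.

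The cells annotated Granule numbered 9, 23, 9 and 5 in FT replicates 1, 2, 4 and 5, and 9, 35, 10, 13 and 6 in Sham replicates 1 to 5. Together they held 410782 UMIs. Their median was 1402 UMIs and 839 genes a cell, against 4150 UMIs in all other types together, 5846 in InhibNeuron and 6372 in ExcitNeuron cells. The cells were therefore shallow, and 66 of the 119 had fewer than the 1000 genes that the study's stated filter asks for, which left 53 meeting it. None of the 119 barcodes recurred in another dorDG reaction, whereas 3 barcodes did so among all dorDG cells.

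The name was set against the markers of the cell type, and the data went against it. Prox1 was found at 0.901 UMIs per 10000 UMIs in cells annotated Granule (95% exact Poisson interval 0.634 to 1.24, which covers counting error only, as do all intervals here). Its level was 1.88 in cells annotated InhibNeuron (1.63 to 2.17), 1.13 in ExcitNeuron and 0.929 in Oligodend1, so Granule had rank 4 among the 12 types. A Prox1 UMI was present in 26 of 119 Granule cells (21.8%) and in 99 of 147 InhibNeuron cells (67.3%). With each cell thinned to 1500 UMIs, which kept 58 of the Granule cells and all 147 InhibNeuron cells, the shares were 13.4% in Granule, 25.5% in InhibNeuron, 14.6% in ExcitNeuron and 13.2% in Oligodend1 cells. Endothelial cells, which should lack the gene in this tissue, gave 10.6% before thinning, at a median of 2945 UMIs, and 3.68% after it. By this measure Prox1 stood above the endothelial background in Granule cells, at about the level found in Oligodend1 cells.

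The other markers were close to absent. Calb1 had 2 UMIs in 2 Granule cells, a level of 0.0487, against 0.453 in InhibNeuron cells. C1ql2 had 1 UMI in all Granule cells and Dsp had 4, and the highest level of Dsp, 0.149, was in cells annotated Mossy. At this depth a share of Granule cells with a Calb1 UMI of up to 5.94% was within the exact binomial interval.

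Further genes known to mark granule cells were also higher elsewhere. Of 20 such genes measured, 0 had their highest level in Granule cells. Stxbp6, a syntaxin-binding protein, was at 2.68 UMIs per 10000 in Granule and 5.88 in InhibNeuron cells. Rfx3, a transcription factor, was at 1.31 against 3.04, and Plk5, a polo-like kinase of the dentate gyrus, at 0.609 against 1.81. Dock10, Sema5a and Dgkh showed the same order. Summed over the list the level was 18.5 in Granule, 39.8 in InhibNeuron and 18.8 in ExcitNeuron cells. Not every such gene was lower in Granule than in ExcitNeuron cells. Cells with under 2% of UMIs from ribosomal protein genes and under 1% from hemoglobin genes were also compared. There Stxbp6 was at 5.07 in Granule and 2.67 in ExcitNeuron cells, and Plk5 at 0.918 and 0.267. Rfx3 was at 2.13 and 1.87, with overlapping intervals. Each of these genes was higher still in InhibNeuron cells of that sort. The markers of inhibitory neurons did not separate the types in the other direction. Summed over 9 such markers the level was 5.23 in Granule and 5.34 in InhibNeuron cells, and 4 of the 9 were highest in Granule cells. The sum was highest in OPC (oligodendrocyte precursor) cells, at 7.12, so it did not single out inhibitory neurons. Only 1 of the 9, Erbb4, averaged at least 0.5 UMIs per 10000 in Granule cells. Gad1, which encodes the enzyme that makes GABA, was at 0.487 in Granule cells and 0.296 in cells annotated InhibNeuron. The cells annotated Granule are therefore called by that annotation and not by a cell type.

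**Figure D1:**
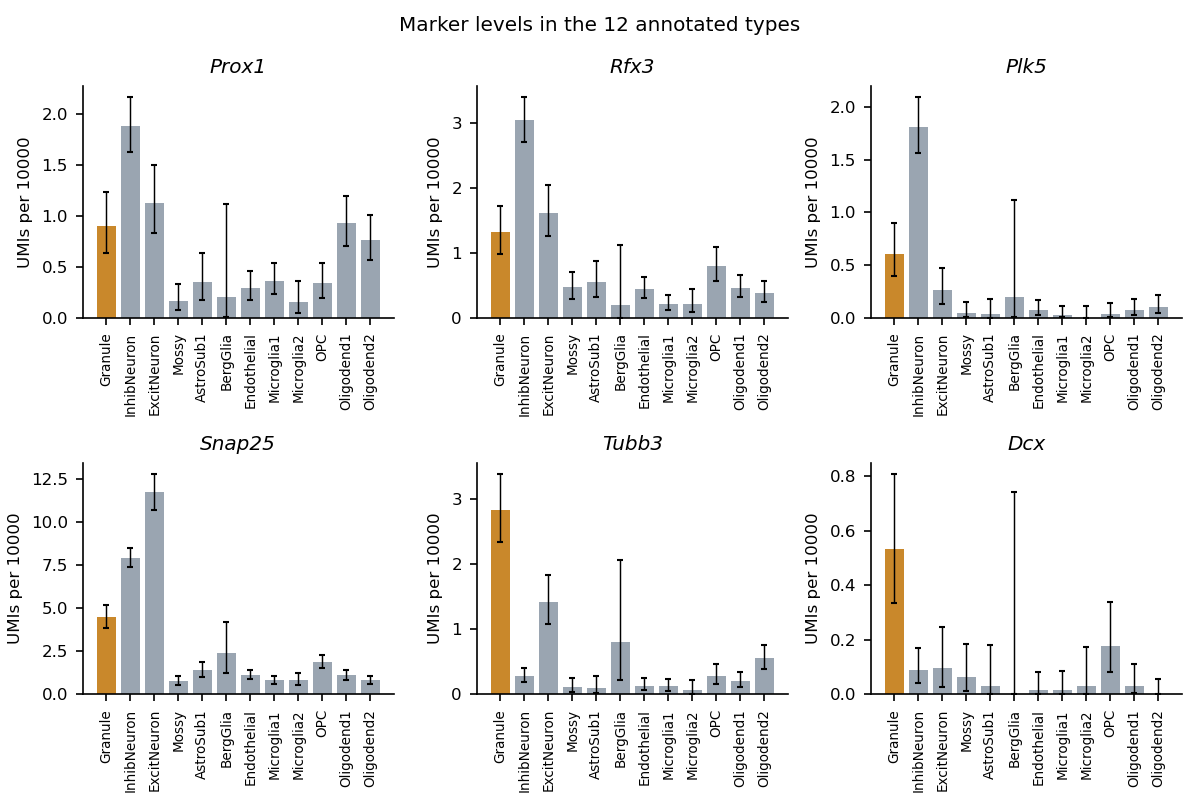
Levels of 6 marker genes (UMIs per 10000, linear axes from 0) in the 12 annotated dorDG types, pooled over all cells of a type; error bars are 95% exact Poisson intervals of counting error. Prox1, Rfx3 and Plk5 stand highest in InhibNeuron cells, Snap25 in ExcitNeuron cells, and Tubb3 and Dcx in cells annotated Granule.

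Pooled over all Granule cells, general neuronal genes were present at less than the level of the other neurons. Part of the gap was absent among cells with under 2% of UMIs from ribosomal protein genes and under 1% from hemoglobin genes. This sort leaves out the hemoglobin-rich cells described below, and the part of each cut in the change was not tested. The presynaptic genes Syt1, a calcium sensor of vesicle release, and Snap25, a component of the fusion machinery, were at 11.1 and 4.48 UMIs per 10000 in Granule cells and at 21.0 and 11.7 in ExcitNeuron cells. Slc17a7, which loads glutamate into vesicles, was at 1.12 in Granule, 5.2 in ExcitNeuron and 3.21 in InhibNeuron cells. Among cells of this sort, 86 Granule and 118 InhibNeuron, Snap25 was at 6.28 in Granule (95% exact Poisson interval 5.25 to 7.46) and 6.33 in InhibNeuron cells (5.77 to 6.94), with overlapping intervals. Syt1 was at 19.8 (17.9 to 21.8) against 24.0 (22.9 to 25.1) in the same cells, so it remained lower in Granule. In ExcitNeuron cells of the same sort Snap25 was at 7.69 (6.73 to 8.75) and Syt1 at 26.0 (24.2 to 27.9). Slc17a7 was at 1.59 in Granule, 2.91 in ExcitNeuron and 2.25 in InhibNeuron cells of that sort. Part of the gap to ExcitNeuron cells thus remained. The 7 neuronal markers summed to 21.7 in Granule cells, rank 3 of the 12 types. Rank 3 also held for lists of vesicle release genes, glutamate receptors, GABA-A receptors and potassium and HCN channels. Glutamate receptor genes, for example, summed to 77.7 in Granule, 149 in InhibNeuron and 129 in ExcitNeuron cells, with the AMPA receptor subunits Gria1 at 15.2 and Gria2 at 13.0 in Granule cells.

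The genes that set cells annotated Granule most apart from all other dorDG cells were hemoglobin genes. These comparisons describe the annotation, which was built from the same counts, and carry no test. As a mean over the 9 replicates, Hbb, a beta chain of hemoglobin, was at 413 ± 370 UMIs per 10000 (SD, n = 9) in Granule cells and 3.05 ± 2.96 in other cells, a ratio of 133 with 0.05 added to both. The alpha chain genes Hba2 and Hba1 had ratios of 100 and 86.5. The neuronal genes that followed had far lower ratios. Kcnc2, a fast potassium channel, was at 1.67 ± 1.79 against 0.253 ± 0.169 (ratio 5.67, higher in 8 of 9 replicates). Stmn2, a microtubule regulator of growing axons, had a ratio of 3.34 and Tubb5, a tubulin, 3.25. The AMPA receptor subunit Gria4, the splicing factor Srrm4, the peptide-amidating enzyme Pam and the nuclear factor Nfix had ratios of 2.99, 2.97, 2.94 and 2.85. The remaining 10 of the 20 leading genes, Pcp4, Zfp385b, Hist3h2ba, Uchl1, Pak3, Dbn1, Ptprn2, Cadps, Mllt11 and Arpp21, lay between 2.30 and 3.10.

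Most of these neuronal genes were not highest in Granule cells when the types were taken one by one. Gria4 was at 5.28 in Granule and 5.37 in InhibNeuron cells, Uchl1 at 2.48 and 4.96 in ExcitNeuron, and Arpp21 at 2.92 and 6.14 in ExcitNeuron. Kcnc2, at 1.36 in Granule and 1.16 in ExcitNeuron, and Nfix, at 2.36 and 1.57 in InhibNeuron, were highest in Granule cells. Kcnc2 varied widely between pools, at 5.28, 0.732, 0 and 0.516 UMIs per 10000 in FT replicates 1, 2, 4 and 5 and at 4.08, 0.676, 1.44, 1.47 and 0.856 in Sham replicates 1 to 5.

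Cells annotated Granule were of 3 kinds, separated by the share of UMIs from hemoglobin genes and from cytosolic ribosomal protein genes. Hemoglobin-rich cells, with at least 1% of UMIs from hemoglobin genes, numbered 10. Of the other 109, 23 had at least 2% of their UMIs from ribosomal protein genes, and 86 had less. These 86 low-ribosomal cells were the shallowest, with a median of 1163 UMIs, against 2747 in the 23 cells richer in ribosomal transcripts and 8078 in the hemoglobin-rich cells. The kinds held 50.4%, 29.0% and 20.6% of all Granule UMIs in the same order.

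**Figure D2:**
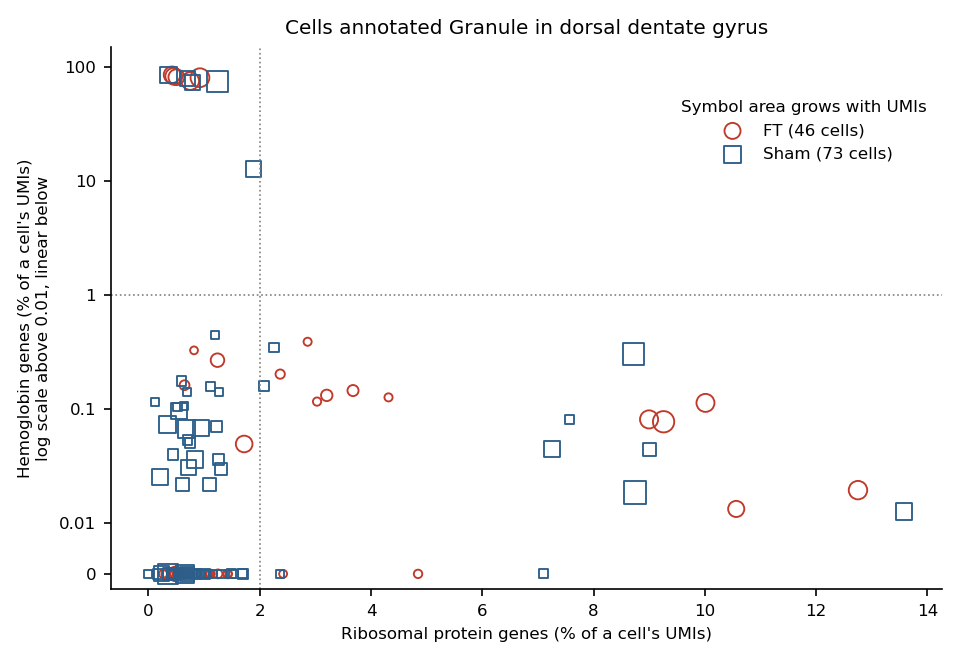
Each of the 119 cells annotated Granule, by the share of its UMIs from ribosomal protein genes (percent, linear axis) and from hemoglobin genes (percent, log axis above 0.01); circles are FT and squares Sham cells, and symbol area grows with UMIs. Dotted lines mark 2% and 1%. Of the 10 cells above the horizontal line, 9 lie between 73.2% and 85.5%, and the other 109 cells lie at or under 0.447%.

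The kinds followed the reaction. In the replicates with 2 reactions, the low-ribosomal kind came from the second reaction in 61 cells and from the first in 0. Cells of 2% ribosomal transcripts or more came from the first in 8 and from the second in 1, and hemoglobin-rich cells in 5 and 1. The labels describe the preparation as nuclei, whereas the study's methods describe dissociated cells and, from a portion of the tissue, nuclei; the sources used here do not say which reaction held which. Counting all cells with under 2% ribosomal transcripts, hemoglobin-rich ones included, 80.7% of Granule, 80.3% of InhibNeuron, 81.8% of ExcitNeuron and 36.2% of all other-type cells together were of that sort.

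The synaptic signal of the annotation lay in the low-ribosomal kind. Glutamate receptor genes summed to 136 UMIs per 10000 in low-ribosomal cells, 27.3 in cells of 2% ribosomal transcripts or more and 6.86 in hemoglobin-rich cells. Potassium and HCN channel genes were at 68.1, 13.2 and 3.43. Further granule markers were at 28.4, 8.80 and 7.69. Ribosomal protein genes were at 73.7, 886 and 82.5, and heat shock genes at 6.72, 35.6 and 11. Prox1 itself was at 1.30 in low-ribosomal cells (0.860 to 1.90) and had 0 UMIs in the 10 hemoglobin-rich cells, against 2.14 in low-ribosomal InhibNeuron cells (1.82 to 2.51). As a description across 4539 genes, which are not independent replicates, the levels of low-ribosomal Granule cells had a Spearman correlation of 0.845 with low-ribosomal InhibNeuron, 0.825 with ExcitNeuron and 0.706 with OPC (oligodendrocyte precursor) cells. The points share libraries, and the types differ in depth. For Granule cells of 2% ribosomal transcripts or more the values were lower, 0.691 with OPC, 0.612 with InhibNeuron and 0.592 with ExcitNeuron cells of the same sort.

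**Figure D3:**
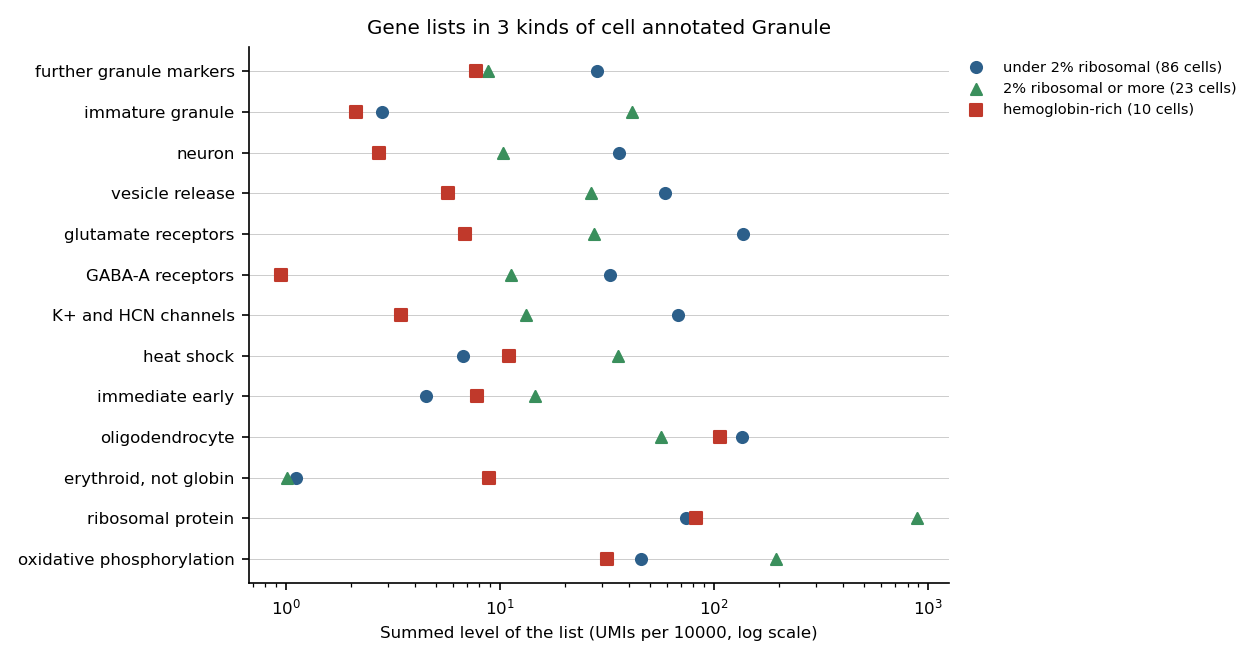
Summed levels of 13 gene lists (UMIs per 10000, log axis) in the 3 kinds of cell annotated Granule, pooled over cells. The synaptic receptor and channel lists are highest in the 86 low-ribosomal cells, the immature granule, ribosomal protein and oxidative phosphorylation lists in the 23 cells of 2% ribosomal transcripts or more, and the erythroid list in the 10 hemoglobin-rich cells.

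Transcripts of other cell types were measured in the same way. Genes of oligodendrocytes, the myelin-forming cells, summed to 106 UMIs per 10000 in Granule, 44.3 in InhibNeuron and 523 in Oligodend1 cells. Mbp, which encodes myelin basic protein, made up most of this, with a UMI in 118 of 119 Granule cells. The summed level was 134 in low-ribosomal, 56.2 in ribosomal-richer and 106 in hemoglobin-rich cells. Genes of astrocytes summed to 4.65, of microglia to 3.24, of endothelial cells to 3.04 and of mural cells to 0.974 in Granule cells, all far under the levels of their own types.

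The hemoglobin-rich cells were a small and separate set. Hemoglobin in the adult rat is made of alpha and beta chains and is produced in erythroid cells, and reticulocytes, the youngest circulating red cells, still carry its mRNA. The 10 cells were 8.4% of Granule cells (exact binomial interval 4.10% to 14.9%), while 4 of 1170 cells of other types (0.342%) met the same threshold: 3 Endothelial cells and 1 Mossy cell. They came from 7 of the 9 replicates, with 5 FT and 5 Sham cells. Their median of 757 genes was low for their 8078 UMIs.

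Within the set, 9 cells drew 73.2% to 85.5% of their UMIs from hemoglobin genes. The study's methods state that a cluster resembling hemoglobin-expressing cells was removed after the clusters had been annotated. A supplementary figure legend places that cluster in the ventral dentate gyrus. The cells described here stayed in the dorsal annotation under the name Granule. The other cell, from the second reaction of Sham replicate 2, drew 12.7% and held 2887 genes, 222 UMIs of oligodendrocyte genes and 26 of endothelial genes. Below the threshold, the highest value in any Granule cell was 0.447%, and thresholds of 0.5% and 5% gave the same cells. Every one of the 10 cells carried Hba1, Hba2, Hbb and Hbb-b1. Hba1 gave 28% and Hbb 25.3% of their hemoglobin UMIs. LOC689064, which RefSeq names Hbb-bs, gave 20.1% and Hba2 15.3%. The rat globin genes are near-identical copies, so reads could be split between them and levels of single copies are uncertain. Alpha chain genes gave 44.0% of hemoglobin UMIs in the 10 cells, and 57.4% in cells of other types below the threshold.

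Other erythroid transcripts were found in the same cells. Alas2, the erythroid enzyme that starts heme synthesis, had 45 UMIs in 8 of the 10 cells and 1 UMI in the other 109 Granule cells. Ahsp, which encodes the chaperone of free alpha chains, had 7 UMIs in 5 of the 10 cells and 0 in the other 109. In the 1166 other-type cells below the threshold, Alas2 was found in 11 cells and Ahsp in 0, and in the 4 hemoglobin-rich cells of other types Alas2 had 0 UMIs. The membrane protein genes Slc4a1 and Ermap had 0 UMIs in the 10 cells, as did Hbz, an embryonic alpha-like chain, whereas Slc4a1 had 9 UMIs in the other 109 Granule cells. Neuronal markers were nearly missing: their summed level was 2.72 UMIs per 10000, against 36.0 in low-ribosomal cells.

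Hemoglobin outside these cells was at the level of the rest of the tissue or below it. A hemoglobin UMI was present in 47.1% of Granule cells and in 67.9% of cells of other types, which were deeper. With the 10 cells left out, the Granule to other ratio was 0.494 for Hbb, 0.599 for Hba2 and 0.570 for Hba1, so these genes no longer set Granule cells apart. Without them the leading genes were Kcnc2 (ratio 7.73), Stmn2 (4.17), Tubb5 (3.71) and Serpini1, a serine protease inhibitor secreted by neurons (3.71), and 15 of the 20 leading genes were shared with the list over all Granule cells.

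Genes of immature granule cells were concentrated in a few cells. Dcx encodes doublecortin, a microtubule protein of migrating neuroblasts, Neurod1 a transcription factor of new neurons, and Tubb3 a neuronal tubulin. They were at 0.536, 0.560 and 2.82 UMIs per 10000 in Granule cells, in each case the highest of the 12 types. Igfbpl1, Eomes and Top2a were also highest there, on 6, 2 and 17 UMIs. Over 11 immature genes, with Stmn1 left out because Oligodend1 cells hold it at 22.5, 6 Granule cells held 18 to 49 UMIs each and every other Granule cell at most 7 with a median of 0. These 6 cells held 78.8% of the list's UMIs in Granule cells, including 103 of 116 for Tubb3, 18 of 22 for Dcx and 22 of 23 for Neurod1. They were not alike: the cell with 18 list UMIs, from Sham replicate 5, held 0 of Tubb3, 0 of Neurod1 and 2 of Dcx. Most of its list UMIs came from other genes of the list.

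The 6 cells were deep, at 7498 to 16175 UMIs, had 8.72% to 13.6% ribosomal transcripts and came from 5 replicates, 3 in FT and 3 in Sham. Among 1170 cells of other types, 4 reached 10 such UMIs: 2 ExcitNeuron, 1 InhibNeuron and 1 OPC cell. The minimum of 10 was chosen after the counts were seen, and depth was not equalised in this count.

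FT and Sham were then compared over replicates. The mean share of dorDG cells annotated Granule was 7.47% ± 2.90 (SD, n = 4) in FT and 10.8% ± 8.56 (n = 5) in Sham, which did not differ beyond the spread between replicates (two-sided exact permutation test over 126 splits, p = 0.603, Benjamini-Hochberg adjusted over 7 measures 0.704). The shares were 6.29%, 11.7%, 6.87% and 5.05% in FT replicates 1, 2, 4 and 5, and 3.91%, 25.4%, 10.0%, 9.63% and 5.17% in Sham replicates 1 to 5. Sham replicate 2 stood far above the rest, and without it the difference turned to 0.294 percentage points higher in FT.

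Hemoglobin transcripts took a larger mean share of Granule UMIs in FT, but the groups overlapped. The share was 33.8%, 12.4%, 40.6% and 15.1% in FT replicates 1, 2, 4 and 5, and 9.62%, 15.8%, 0.0489%, 17.4% and 0.0200% in Sham replicates 1 to 5. The means were 25.5% ± 13.9 (n = 4) and 8.59% ± 8.33 (n = 5), with p = 0.0952 by the same exact permutation test and an adjusted p of 0.333. The smallest p that this design allows is 0.0159. Hemoglobin-rich cells occurred in 4 of 4 FT and 3 of 5 Sham replicates and were 14.4% ± 8.25 of Granule cells in FT and 5.47% ± 5.15 in Sham (n = 4 and 5, exact permutation p = 0.127, adjusted 0.333). Each of these shares rested on 0 to 3 cells. Among the replicates with 2 reactions the hemoglobin-rich share was 2.11 percentage points lower in FT, and among those with 1 reaction 18.5 points higher.

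The low-ribosomal share, hemoglobin-rich cells included, was 64.5% ± 15.1 in FT and 82.6% ± 16.8 in Sham (n = 4 and 5, exact permutation p = 0.175, adjusted 0.333). Mitochondrially encoded transcripts took 4.11% ± 0.246 and 3.15% ± 1.19 of Granule UMIs, and nuclear genes of oxidative phosphorylation (oxphos), the mitochondrial pathway that makes ATP, 0.995% ± 0.280 and 0.769% ± 0.372. The exact permutation p was 0.190 and 0.381, with adjusted p of 0.333 and 0.533, at n = 4 and 5. The median UMIs of a Granule cell averaged 2901 ± 3084 in FT and 2507 ± 1483 in Sham (n = 4 and 5, exact permutation p = 0.810). None of the 7 measures passed the threshold of an adjusted p of 0.2.

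**Figure D4:**
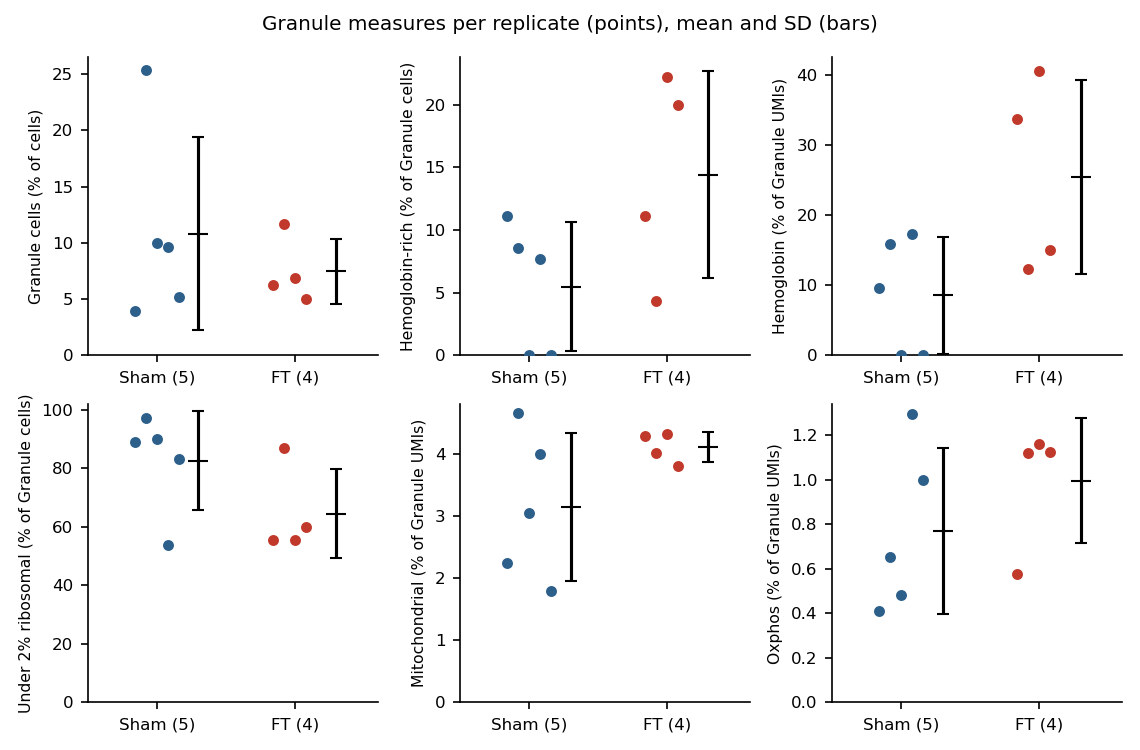
Per-replicate values of 6 measures of cells annotated Granule in Sham (5 replicates) and FT (4 replicates); points are replicates, bars the mean and SD, and all axes are linear from 0. The groups overlap in every panel, and Sham replicate 2 lies at 25.4% in the panel of Granule cells among all cells.

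At the level of single genes no FT effect was called in Granule cells by the fit that compared the groups without pairing replicates. UMI counts were summed over the Granule cells of each replicate and 3938 genes were tested with edgeR's quasi-likelihood test. A gene counted as called when its adjusted p (Benjamini-Hochberg) did not exceed 0.2 and its log2FC was 0.32 or more in size. Called genes numbered 0, or 0% of those tested, with a lowest adjusted p of 0.410. At an unadjusted p under 0.05 there were 333 genes, 153 higher and 180 lower in FT. DESeq2 gave 0 calls as well, and 217 genes with an unadjusted p under 0.05. The median log2FC over all genes was -0.12; limma on log2(UMIs per 10000 + 0.01), another scaling, shifted it to -0.74. The count rose to 27 when Sham replicate 5 was left out, 20 higher and 7 lower in FT.

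Genes whose FT and Sham replicates did not overlap were mostly lower in FT. Of the 3938 genes, 13 (0.33%) had all 4 FT replicates above all 5 Sham replicates and 186 (4.72%) had them all below. Hemoglobin took 12.4% to 40.6% of the UMIs of the FT sums and 0.0200% to 17.4% of the Sham sums, and this enters every level per 10000. With hemoglobin left out of the totals the counts were 38 and 93.

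Among the 9 genes named as higher, none passed the adjusted threshold. Rpl27-l1, a ribosomal protein gene copy that may share reads with its near-identical relatives, was at 0.959, 2.20, 1.83 and 3.35 UMIs per 10000 in FT replicates 1, 2, 4 and 5 and at 0, 0.386, 0.576, 0.735 and 0.856 in Sham replicates 1 to 5 (log2FC 2.37 ± 0.58 SE, edgeR adjusted p = 0.410). Hsp90aa1, the inducible cytosolic HSP90 chaperone, was at 7.67, 8.42, 10.5 and 6.70 in FT and at 1.59, 3.48, 6.62, 4.41 and 5.13 in Sham (log2FC 1.35 ± 0.50, adjusted p = 0.550). For Hsp90aa1 the lowest FT and the highest Sham replicate nearly met, and cells of 2% ribosomal transcripts or more held it at 12.4 against 2.37 in low-ribosomal cells. Slc25a39, a mitochondrial glutathione carrier of erythroid cells among others, averaged 0.878 ± 0.150 (n = 4) in FT and 0.357 ± 0.271 (n = 5) in Sham. Cript, Mfge8, Rpl31, Rbm42, Ubxn1 and Sparcl1 made up the rest, with log2FC between 1.24 and 2.68. All 9 had their highest level in another type, Mfge8 in AstroSub1 (6.03, against 0.828 in Granule) and Sparcl1 in BergGlia (27.9, against 1.07).

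The 10 genes named as lower had log2FC between -4.22 and -1.88. Rnf220, a ubiquitin ligase, had UMIs in 1 of 4 FT replicates (0.732) and was at 2.95, 2.71, 2.59, 1.71 and 4.85 UMIs per 10000 in Sham replicates 1 to 5 (log2FC -3.15 ± 0.71 SE, edgeR adjusted p = 0.410). Aatk, a membrane-bound kinase, was at 0.183 in FT replicate 2 and 0 in the other FT replicates, and at 3.85, 1.64, 0.576, 2.69 and 0.856 in Sham. Both had their highest level in Oligodend1 cells, Rnf220 at 7.56 against 1.90 in Granule and Aatk at 3.72 against 1.24. Mast4.1, Pex5l and Eml2 were likewise highest in an oligodendrocyte type. The endocytic dynamin Dnm3, the activity-dependent transcription factor Mef2a, the nuclear envelope protein Syne1, the cohesin subunit Stag2 and Arl15 completed the set.

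Arl15, a small GTPase, was at 0.959, 0.183, 0.262 and 0.516 in FT and at 2.27, 2.03, 5.47, 2.94 and 2.57 in Sham (log2FC -2.48 ± 0.59, adjusted p = 0.410), and ExcitNeuron cells held it at 5.66 against 1.87 in Granule. All 10 lower genes were higher in low-ribosomal cells than in the other kinds, and the FT replicates held fewer such cells on average. For Arl15 a fit on all cells under 2% ribosomal transcripts, hemoglobin-rich ones included, covered 3 FT and 5 Sham replicates. That fit gave a log2FC of -3.97 and an adjusted p of 0.0662 by edgeR. The oligodendrocyte markers summed to between 63.3 and 82.7 in FT and between 46.5 and 240 in Sham replicates (medians 67.1 and 52.3). The part of kind and of oligodendrocyte transcripts in these differences was not tested beyond these values.

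**Figure D5:**
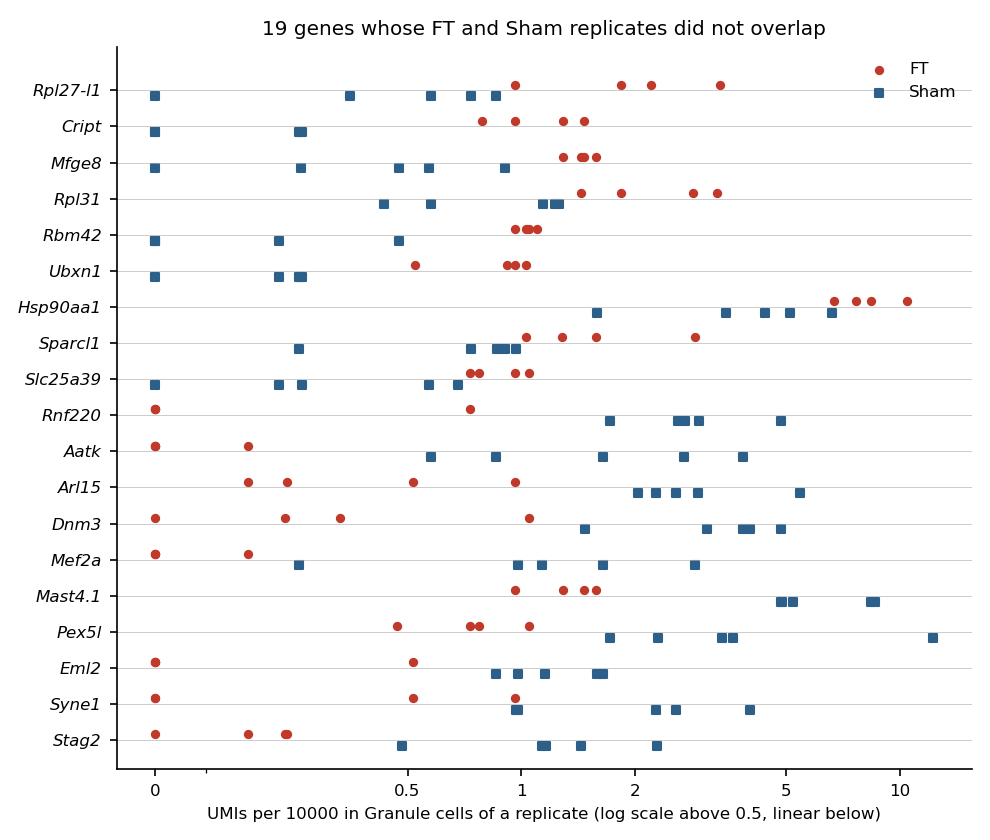
Levels of the 19 named genes in cells annotated Granule (UMIs per 10000, log axis above 0.5) in 4 FT replicates (circles) and 5 Sham replicates (squares), the 9 higher in FT above the 10 lower. The replicates of the groups do not overlap for any of these genes, which were chosen for that, and none passed the adjusted p threshold.

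By gene group, called genes numbered 0 in every list, and the groups are described by their counts of sign and medians beside the median of -0.12 over all genes. Of 77 ribosomal protein genes tested, 76 had a positive log2FC, with a median of 0.82. Of 62 oxphos genes 58 were positive (median 0.74), and all 13 mitochondrially encoded genes tested were (median 0.65). Heat shock genes, 6 of 6 positive, had a median of 0.99. All 4 lists also stood higher in the cells of 2% ribosomal transcripts or more than in low-ribosomal cells. Among all cells under 2% ribosomal transcripts, hemoglobin-rich ones included, the medians were 0.60 for ribosomal, 0.55 for oxphos and 1.24 for heat shock genes. The median there was -0.36 over all genes and 2.27 over hemoglobin genes. These 3 lists therefore also stood above the median of all genes, in sums that kept the hemoglobin-rich cells.

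Synaptic and channel genes were on the other side. Of 13 potassium and HCN channel genes tested, 13 had a negative log2FC (median -0.79), and 4 had an unadjusted p under 0.05. Kcnq3, a subunit of the M-current channel that damps repetitive firing, was at 1.92, 2.56, 1.57 and 2.06 UMIs per 10000 in FT and at 8.38, 3.38, 6.33, 3.18 and 8.84 in Sham, with no overlap, and its adjusted p was 0.550 by edgeR. Of 16 glutamate receptor genes 15 were negative (median -0.65). Gria4 was at 0.959, 2.01, 2.36 and 1.80 in FT and at 26.1, 2.42, 3.74, 3.67 and 5.70 in Sham, where replicate 1 held most of the signal. Of 11 synaptic adhesion genes 9 were negative (median -0.81), of 8 GABA-A receptor genes 6 (median -0.44) and of 14 vesicle release genes 10 (median -0.37, but 0.35 among the replicates with 2 reactions). Among all cells under 2% ribosomal transcripts, hemoglobin-rich ones included, the medians were -0.94 for the channels and -0.73 for glutamate receptors, against -0.36 over all genes.

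Genes tied to antidepressant action were few and low. Of the 12 serotonin-related genes measured, 2 passed the filter on low counts, and neither was called. Htr2a, an excitatory serotonin receptor, was at 0.989 ± 0.227 UMIs per 10000 (n = 4) in FT and 1.36 ± 0.685 (n = 5) in Sham, and Htr4 at 1.64 ± 0.980 and 1.35 ± 0.818. Slc6a4, the serotonin transporter that fluoxetine blocks, had 1 UMI in all Granule cells. Bdnf, the neurotrophin, had 6. Its receptor Ntrk2 averaged 1.55 ± 1.71 in FT and 4.07 ± 2.56 in Sham (log2FC -1.20 ± 0.68, edgeR adjusted p = 0.609), with overlapping replicates. Nr3c2, the mineralocorticoid receptor, was at 2.67 ± 1.74 and 5.06 ± 5.27. Prox1 was at 0, 0.366, 0 and 1.29 in FT and at 0.453, 1.55, 1.73, 0.980 and 0.570 in Sham (log2FC -1.01 ± 0.74, adjusted p = 0.649). Of 5 immature granule cell genes tested 4 had a positive log2FC, with a median of 0.78 against -0.12 over all genes; with limma these medians were -0.39 and -0.74. Tubb3 was at 0.480, 7.87, 1.05 and 2.58 in FT and at 0.227, 4.06, 0.576, 3.18 and 0 in Sham, and the groups overlapped.

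Erythroid genes leaned towards FT without a call. Of 7 hemoglobin genes 7 were positive (median log2FC 1.76). Hba1 was at 916, 354, 1150 and 429 UMIs per 10000 in FT replicates 1, 2, 4 and 5 and at 259, 446, 2.01, 480 and 0.570 in Sham replicates 1 to 5, and the groups overlapped. Alas2 was at 1.92, 2.01, 2.09 and 0.773 in FT and at 0, 1.26, 0, 1.47 and 0.285 in Sham (log2FC 1.46 ± 0.70, edgeR adjusted p = 0.590). Sham replicates 3 and 5, the lowest for hemoglobin, were the replicates without a hemoglobin-rich cell.

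The reactions were then compared within replicates. In FT replicates 1 and 2 and Sham replicate 2, which had at least 3 Granule cells in both reactions, the first was tested against the second with edgeR and the replicate as a block. Of 3839 genes tested, 383 (9.98%) were called higher in the first reaction and 32 (0.834%) lower, and 291 and 31 of them had the same sign in all 3 replicates. The call rested on which replicates entered: without FT replicate 1 there were 1027 called genes, without FT replicate 2 there were 9 and without Sham replicate 2 there were 16. Without the replicate as a block 556 genes were called.

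Hemoglobin, ribosomal and immature genes were higher in the first reaction. Called higher were 67 of 76 ribosomal protein genes, 16 of 59 oxphos genes and 7 of 7 hemoglobin genes, and called lower were 0 of each. Hba1 was at 1108, 586 and 1261 UMIs per 10000 in the first reactions of FT replicate 1, FT replicate 2 and Sham replicate 2, and at 0, 0 and 31.8 in the second. Tubb3 was at 0.580, 13.0 and 12.03 in the first reactions and had no UMI in the second, which makes it at least 31.6-fold higher when its 86 UMIs pooled over the first reactions are set against a floor of 3 UMIs over the 3 second reactions. Tubb2b and Stmn2, also of growing neurites, averaged 15.3 and 7.30 in the first and 0.203 and 0.0486 in the second. The Tubb3 UMIs of the first reactions lay in few cells. Cells of FT replicate 2 held 29 and 14, a cell of Sham replicate 2 held 42, and a hemoglobin-rich cell of FT replicate 1 held 1. The first 3 of these, which are among the cells rich in immature genes, also held 13, 29 and 26 of the 73 Stmn2 UMIs. The immediate early gene Fos and the chemokine genes Ccl3 and Ccl4, which microglia express, were likewise without a UMI in the second reactions, and at least 16.2-fold, 15.8-fold and 12.9-fold higher in the first by the same pooled measure. Ccl3 and Ccl4 stood at 201 and 137 in Microglia1 cells.

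Synaptic genes were higher in the second reaction. Gria1 was at 8.70, 1.51 and 0.286 UMIs per 10000 in the first and at 36.0, 49.0 and 18.5 in the second reactions (log2FC -2.83 ± 0.84, edgeR adjusted p = 0.0154). Grik4, a kainate receptor subunit, averaged 0.101 and 5.61, and Nrxn3, a presynaptic adhesion protein, 0.193 and 4.94. Kcnd2 and Kcnc2 were the called potassium channel genes, Kcnd2 at 6.38, 0.606 and 2.29 in the first and at 38.7, 16.6 and 19.4 in the second. Csmd1, Ccdc85a, Rnf112, Shank2.1, Slit3, Wsb1 and Myo1d had no UMI in the first reactions and were, pooled over reactions, at least 4.54-fold to 6.96-fold lower there against a floor of 3 UMIs over the 3 first reactions. The first reactions here held 5, 4 and 3 Granule cells and the second 4, 19 and 32, and the kinds of cell differed between them as described, so reaction and kind cannot be told apart.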

How the data were processed

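The authors made the deposited UMI count table with Cell Ranger (v2.1.0 per the labels, build rn5) from 10x 3' v2 libraries, and the annotation with Seurat 3 after integrating the reactions. Ventral files were not used. Cells annotated Granule, the gene lists and the tests were chosen with earlier results of these data known. No cell filter or doublet caller was applied; treatment of doublets before deposit is not given in the sources used here.

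Counts were summed over Granule cells per label replicate (FT 20849 to 54653 UMIs, Sham 34750 to 103510). The labels name an FT replicate 3 for the ventral dentate gyrus only, so the dorsal FT group has none. Nothing in the labels says which animals a replicate holds, so p-values measure the spread between pools. Genes averaging at least 0.5 UMIs per 10000 were tested with edgeR 4.0.16 (TMM, quasi-likelihood), with DESeq2 1.42.0 and limma 3.58.1 as alternatives, in R 4.3.3. Shares were compared by exact permutation tests (SciPy 1.17.1). The tests were tried on simulated data first. There the FT against Sham fit called 12.1% of genes changed by an absolute log2FC of 1, 49.1% at 2 and 83.8% at 3. The fit between reactions called 0%, 5.66% and 20% of them. Most changes of log2FC 1 would thus be missed by either fit. Named genes were the 10 per direction with the lowest p among genes whose FT and Sham replicates did not overlap, and, between reactions, the 10 called genes per direction with the largest log2FC and the same sign in 3 replicates. Leading genes were the 20 highest ratios at a level of at least 1 in at least 20% of Granule cells. Loci without a gene name were left out of all 3, members of the lists are named beside them, and 1 gene that the rule gave is not reported here. The mitochondrial list was extended by 13 symbols after the symbols were seen.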

Additional observations from a re-analysis of the deposited data

Results flagged for a closer look

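Of 52 groups of 4 or 5 replicates examined, 11 held 1 replicate far from the others, under a rule with a nominal rate of about 1 in 20. The count cannot be set against that rate. The groups include the named genes, which were chosen for replicates that do not overlap. Several of their flags rest on 0 UMIs in every other replicate. The share of dorDG cells annotated Granule was 25.4% in Sham replicate 2, against 3.91% to 10.0% in the other Sham replicates. The low-ribosomal share was 87.0% in FT replicate 2, against 55.6% to 60.0% in the other FT replicates. The median UMIs of a Granule cell was 7498 in FT replicate 5, which had 5 such cells, against 1058 to 1849. The oxphos share of UMIs was 0.576% in FT replicate 1, against 1.12% to 1.16%.

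Among the named genes, Rnf220 at 0.732, Aatk at 0.183 and Mef2a at 0.183 UMIs per 10000 were found in FT replicate 2 and had 0 UMIs in the other FT replicates. Eml2 was at 0.516 in FT replicate 5 and 0 in the others. In Sham, Ubxn1 was at 0 in replicate 1 against 0.245 to 0.290, Arl15 at 5.47 in replicate 3 against 2.03 to 2.94, and Pex5l at 12.3 in replicate 5 against 1.71 to 3.63.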

How the results depend on the processing

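The FT against Sham call count of 0 became 4 without the filter on low counts. It became 13 among all cells under 2% ribosomal UMIs, hemoglobin-rich ones included. The cause was not tested. The count was 0 with DESeq2, with limma and with other size factors. Leaving out 1 replicate gave 0 to 27 calls. The replicate number as a block gave 36 calls, 11 higher and 25 lower in FT, over 4 pairs. Whether the numbers pair the samples is not given for the single-cell pools, and the data leave it undecided: 3 of 4 same-numbered pairs had a correlation of deviations above 0.1, the lowest was 0.0335, and 3 of 4 FT replicates were most alike their own number. Rnf220, Aatk, Pex5l and Dnm3 had the lowest adjusted p of the named genes under the block, 0.00342 to 0.0180 by edgeR. Between reactions, leaving out 1 replicate gave 9 to 1027 calls, and the fit without the block 556.

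Differences FT minus Sham ranged, without 1 replicate, from -5.07 to 0.294 points for the Granule share (0.294 without Sham replicate 2) and from -1138 to 1009 UMIs for the median depth (-1138 without FT replicate 5). The median depth difference was -134 among cells meeting the written filter and -1137 among replicates with 2 reactions, where the hemoglobin-rich share differed by -2.11 points; the cause was not tested. The other 4 measures kept their direction in every alternative run, and the 19 named genes theirs. Splits by reaction number, by kind of cell and without hemoglobin genes were chosen after seeing the data or with earlier results known. Shallow cells, 0 to 3 hemoglobin-rich cells a replicate and the unknown mix of cells and nuclei limit every comparison.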
